A study of Canis lupus familiaris with 31 samples.

Results

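Platelet alpha granule cargo was described in whole blood through 10 genes, namely *VWF*, *THBS1*, *MMRN1*, *SPARC*, *PPBP*, *PF4*, *EGF*, *TGFB1*, *PDGFA* and *CLU*. Members were the rows of the count table with 1 of these symbols, and 9 of the 10 had such a row among 32704 rows. *PF4* had no row under that symbol and was not analysed here. Of the 9, 8 passed edgeR's filter on low counts, by which 13918 genes were tested, and *PDGFA* did not.

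RNA from whole blood was sequenced with 1 library per dog in 31 purebred Miniature Schnauzers, and the study asked how the blood transcriptome of dogs with spontaneously raised serum triglycerides (HTG) differs from that of dogs with normal triglycerides. The 13 HTG cases (5 females and 8 males) and 18 controls (8 females and 10 males) were adult, client-owned dogs above a minimum age set by the study, sampled after food was withheld, and the methods exclude dogs on drugs known to alter lipids. No treatment was given to either group, the labels give neither genotype nor age, and nearly all dogs were neutered. HTG was a natural diagnosis, so that the groups can also differ in traits that come with it, and blood was not sorted into cell types.

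Platelets are fragments of megakaryocytes that carry RNA but no nucleus. Their alpha granules hold proteins that megakaryocytes make themselves and proteins taken up from plasma, and on activation they release adhesive proteins, chemokines and growth factors that act in clotting, inflammation and wound repair. Several cargo genes are also expressed elsewhere, such as *VWF* and *MMRN1* in endothelium and *TGFB1* in leukocytes.

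Total counts in the table ranged from 14524659 to 41533599 per dog. These totals were below the reads assigned to genes that the study lists for each dog, by a share that differed between dogs and was greatest in control_03, so that they are not the full depth of a library. The reason was not tested. The member rows together held between 0.156% and 0.561% of the counts in the cases (median 0.295%) and between 0.129% and 0.429% in the controls (median 0.285%). *PPBP* supplied 37.2% to 73.9% of the members' counts in a dog and *THBS1* 17.4% to 45.6%, which are shares of reads and not levels per length. The library of control_03 stood apart. It had the lowest total in the table (though not the fewest assigned reads), the lowest TMM scaling factor (0.527, against 0.752 in case_01, the next) and the highest erythroid marker score, so that its CPM values (counts per 1000000 of the TMM-corrected library size) rest on the largest correction. Ranges, calls and correlations that turn on this dog are also given without it. The methods state that 5 cases and 5 controls came from an earlier pilot preparation, and the labels do not name them. Over 364 rows named for small non-coding RNAs, the mean log2 CPM was 1.68 or more in 10 dogs, 5 from each group, and 1.41 or less in the remaining 21. Both sides of this split were compared separately. Whether it is the pilot was not tested.

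*MMRN1* was higher in the cases, by 2.29-fold, and was the member that passed the test in the comparison of all dogs. *EGF* and *THBS1* had fold changes of 1.59 and 1.71 that did not pass it. The other 5 members tested, among them *PPBP* and *VWF*, had fold changes between 0.919 and 1.55, with intervals that included 1. The test was edgeR's quasi-likelihood test with Benjamini-Hochberg adjustment over 13918 genes and a threshold of 0.05, by which 1 of 8 members was called, against 0.0359% of all genes called higher in cases. MMRN1, EGF and THBS1 are also on the list of genes that the study called in these same dogs, so that their direction is not independent evidence. In whole blood, fewer or more platelets and a change in RNA per platelet cannot be told apart.

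**Figure D1:**
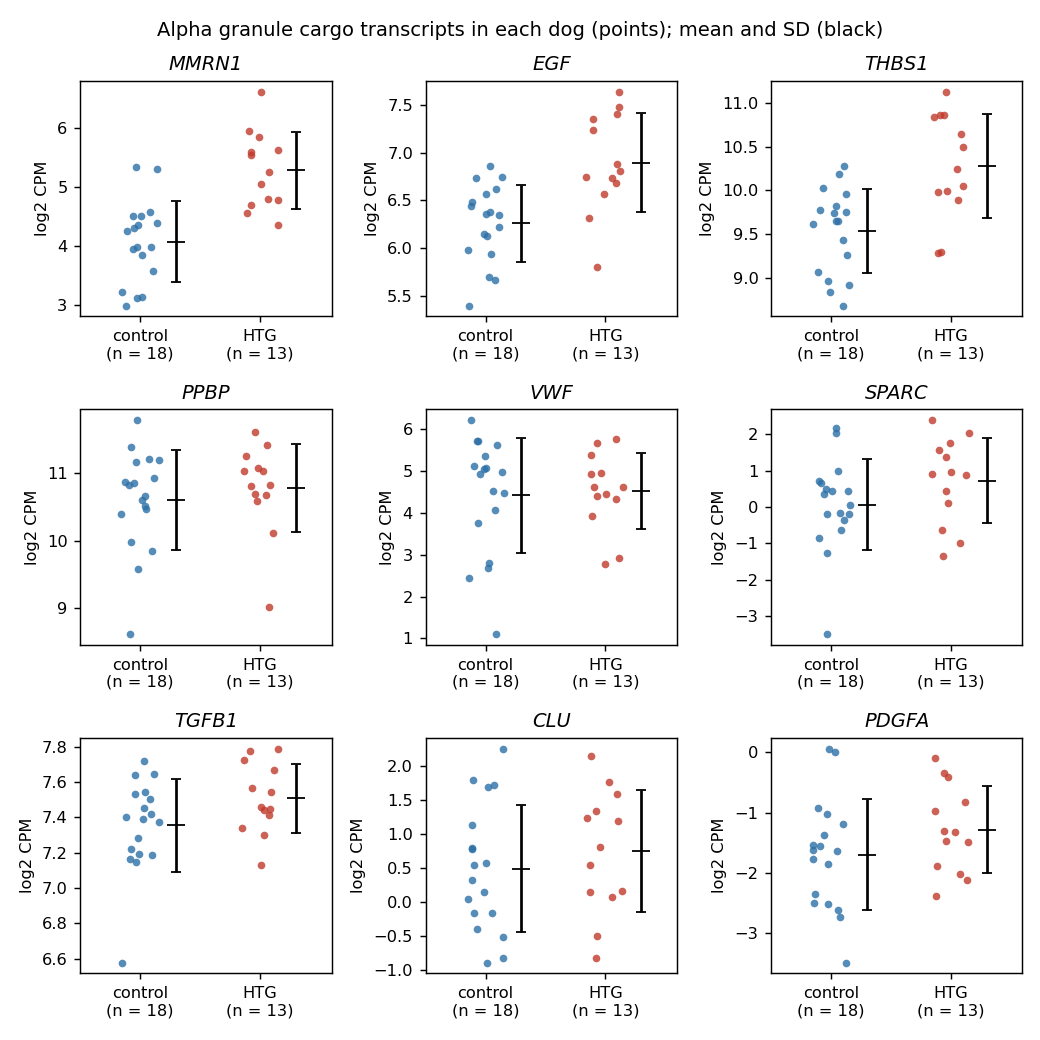
Level of 9 cargo transcripts in each dog, in log2 CPM on the y axis of each panel, with controls in blue (n = 18), HTG cases in red (n = 13) and the mean and SD of each group in black. For *MMRN1* all 13 cases lay above the control median of 17.3 CPM, while the *PPBP* and *VWF* panels show overlapping groups.

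Among the adhesive and matrix proteins, *MMRN1* encodes multimerin 1, a large protein that binds coagulation factor V in alpha granules. Its level ranged from 20.4 to 97.3 CPM in the cases (median 37.9) and from 7.82 to 40.1 CPM in the controls (median 17.3). All 13 cases were above the control median, 6 of them were above every control, and 12 controls were below every case. The means were 42.6 ± 21.2 CPM (SD, n = 13) and 18.6 ± 9.26 CPM (SD, n = 18). The log2 fold change was 1.20 (SE 0.23, 95% confidence interval 0.72 to 1.67), and edgeR's adjusted P was 0.0371, with the gene in place 5 by P-value among all genes tested.

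The call for *MMRN1* rested on most of the dogs. It held in 14 of 31 fits that each left out 1 dog and was lost in 17, with edgeR's adjusted P between 0.0525 and 0.0994 in those. The 17 were the fits without case_01, case_03, case_04, case_05, case_06, case_09 or case_10, and without control_05, control_06, control_07, control_08, control_09, control_10, control_12, control_14, control_16 or control_17. Its log2 fold change stayed between 1.03 and 1.30 in all 31.

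*THBS1* encodes thrombospondin 1, an adhesive glycoprotein that binds CD36 and CD47. The *THBS1* level ranged from 624 to 2234 CPM in the cases (median 1210) and from 412 to 1240 CPM in the controls (median 804). In the cases, 11 of 13 dogs exceeded the control median and 6 exceeded every control, and 6 controls were below every case. The highest control was control_03, and without it 7 cases exceeded every control (highest 1167 CPM). Its log2 fold change was 0.77 (SE 0.18, 95% confidence interval 0.41 to 1.14), with edgeR's adjusted P of 0.0741.

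*VWF* encodes von Willebrand factor, which tethers platelets to exposed collagen through glycoprotein Ib. Values ran from 6.78 to 54.3 CPM in the cases (median 24.5) and from 2.05 to 74.0 CPM in the controls (median 30.9). The cases lay inside the range of the controls, and 3 of 13 were above the control median. Its log2 fold change was -0.12 (SE 0.36, 95% confidence interval -0.86 to 0.62, edgeR's adjusted P = 0.944). The highest control was control_03. Without it the controls reached 52.6 CPM, 1 case lay above them, 5 of 13 cases were above the control median, and the log2 fold change was 0.01.

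*SPARC* encodes a collagen-binding matrix protein and was at low counts, from 0 to 198 per dog. Levels lay between 0.305 and 5.12 CPM in the cases (median 1.79) and between 0 and 4.43 CPM in the controls (median 1.08). The groups overlapped, with 9 of 13 cases above the control median. The log2 fold change was 0.63 (SE 0.39, 95% confidence interval -0.16 to 1.43, edgeR's adjusted P = 0.630). The dog at 0 was control_03, in which a count of 0 allows up to 3 counts, or 0.392 CPM (counting error only).

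Of the chemokines, *PPBP* encodes the precursor of CXCL7, which attracts neutrophils through CXCR2. Dogs ranged from 515 to 3138 CPM in the cases (median 1823) and from 390 to 3547 CPM in the controls (median 1718). All cases lay within the range of the controls, and 8 of 13 were above the control median. That range rested on control_03, without which the controls reached 2688 CPM, 2 cases lay above them and 10 of 13 were above the control median (1625 CPM). The log2 fold change was 0.14 (SE 0.23, 95% confidence interval -0.33 to 0.60, edgeR's adjusted P = 0.891), so that a rise of the size seen for *MMRN1* lay outside its interval. Leaving out 1 dog gave log2 fold changes from 0.059 to 0.22. They were 0.22 without control_03 (SE 0.22, edgeR's adjusted P = 0.670) or case_12, and 0.059, 0.075, 0.081 and 0.090 without case_06, control_17, case_04 or control_09.

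Of the growth factors, *EGF* encodes epidermal growth factor, the ligand of EGFR. Its level ranged from 55.9 to 199 CPM in the cases (median 112) and from 42.0 to 116 CPM in the controls (median 81.7). In 11 of 13 cases it exceeded the control median, in 6 it exceeded every control, and 3 controls were below every case. The log2 fold change was 0.66 (SE 0.15, 95% confidence interval 0.35 to 0.98), with edgeR's adjusted P of 0.0741.

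*TGFB1* encodes transforming growth factor beta 1, a regulator of immune cells and of matrix deposition. Levels ran from 140 to 221 CPM in the cases (median 176) and from 95.4 to 211 CPM in the controls (median 168). It was the least variable member between dogs of a group, with a biological coefficient of variation of 0.175 against a median of 0.248 over all genes tested. The log2 fold change was 0.14 (SE 0.08, 95% confidence interval -0.03 to 0.32, edgeR's adjusted P = 0.610).

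*PDGFA* encodes a chain of platelet-derived growth factor and had 0 to 24 counts per dog. Its level ranged from 0.102 to 0.848 CPM in the cases (median 0.310) and from 0 to 0.953 CPM in the controls (median 0.234). In control_14, at 0, up to 0.171 CPM is allowed. The groups overlapped, and no difference was detectable at these counts. DESeq2, which kept the gene, gave a log2 fold change of 0.45 (SE 0.40, adjusted P = 0.757).

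*CLU* encodes clusterin, a secreted chaperone, and had 9 to 107 counts per dog. Its level ranged from 0.474 to 4.34 CPM in the cases (median 1.67) and from 0.449 to 4.69 CPM in the controls (median 1.27). The groups overlapped almost wholly, with 8 of 13 cases above the control median. The log2 fold change was 0.21 (SE 0.34, 95% confidence interval -0.48 to 0.90, edgeR's adjusted P = 0.886). It was 0.053, 0.11 and 0.13 without case_06, case_09 or case_01 and 0.38 without control_18, the range over all fits that left out 1 dog being 0.053 to 0.38.

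Of the 8 members tested, 7 varied more between dogs of a group than the median gene, and *TGFB1* varied less. The biological coefficient of variation was 0.298 for *EGF*, 0.350 for *THBS1*, 0.433 for *PPBP*, 0.444 for *MMRN1*, 0.619 for *CLU*, 0.673 for *VWF* and 0.722 for *SPARC*, beside 0.175 for *TGFB1* and the median of 0.248. The median log2 fold change of the 8 members tested was 0.42, beside -0.02 over all genes, and 7 of 8 were above 0, beside 45.5% of all genes. At an unadjusted P under 0.05, 3 of 8 members were higher in cases, beside 5.04% of all genes.

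With the assigned reads as library sizes and no TMM correction, a fit chosen after the data were seen, the median log2 fold change of all genes moved by -0.18, to -0.19, and edgeR called 1 gene and no member. *MMRN1* then had a log2 fold change of 1.00 (edgeR's adjusted P = 0.198), or 1.19 above the median gene, and those of *EGF* and *THBS1* were 0.49 and 0.64 (adjusted P = 0.374 for both), or 0.68 and 0.83 above it. *PPBP* and *TGFB1* were at -0.0065 and -0.062 in that fit, or 0.19 and 0.13 above the median gene, and *CLU* was at 0.0014. No member was called with limma-voom (*MMRN1* adjusted P = 0.0509), with sex as a covariate in edgeR (0.0613) or with at least 10 counts in every dog in edgeR (0.0725). With DESeq2 in place of edgeR, *MMRN1*, *EGF* and *THBS1* were all called, with adjusted P-values of 0.000851, 0.0147 and 0.0131, beside 0.402% of all genes called higher. The same 3 members were called by edgeR without control_03, with adjusted P-values of 0.0230, 0.0307 and 0.0231, beside 0.899% of all genes. They were also called without case_12, with edgeR's adjusted P-values of 0.0226, 0.0294 and 0.0397, beside 0.165% of all genes. Within the 10 dogs on the high side of the small RNA split the log2 fold changes were 1.17 for *MMRN1*, 0.52 for *EGF* and 0.64 for *THBS1*. On the low side they were 1.11, 0.69 and 0.79, and on neither side alone was a member called by edgeR, where the lowest adjusted P was 0.182.

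The level of platelet RNA itself differed between the groups. A platelet marker score averaged the log2 CPM of 10 platelet genes, none a member or on the study's list (among them *GP9*, *GP1BA*, *GP6*, *TREML1*, *CLEC1B*, *P2RY12*, *PEAR1*, *PDE5A* and *ALOX12*), with every gene first centred at 0. It ranged from -0.42 to 1.11 in the cases and from -1.33 to 0.80 in the controls. The means were 0.36 ± 0.45 (SD, n = 13) and -0.26 ± 0.56 (SD, n = 18), a difference of 0.63 (two-sided permutation test, P = 0.00236, adjusted over 7 marker scores 0.0165), with 11 of 13 cases above the control median. Each of the 10 genes had a log2 fold change above 0, from 0.29 to 0.83, and none was called. The study had already reported platelet pathways as enriched in these same dogs, and the marker list was chosen with that known. The higher score in the cases is therefore not independent evidence. On the high side of the small RNA split the difference was 0.37 (exact permutation test, P = 0.222) and on the low side 0.66 (exact permutation test, P = 0.00399). Without control_03 it was 0.69, and with the assigned reads as library sizes 0.46 (permutation P = 0.0106, unadjusted).

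Across the 31 dogs, 3 members followed the platelet score closely. Pearson's r was 0.88 for *EGF* (rho 0.87), 0.87 for *THBS1* (rho 0.83) and 0.87 for *MMRN1* (rho 0.81), each with a permutation P of 1e-05 for r and rho, the smallest that 100000 resamples give, and 2.67e-05 for r after adjustment over 8 members. Within the cases r was 0.79, 0.78 and 0.89, and within the controls 0.91, 0.88 and 0.78. Without control_09 and control_17, the dogs farthest from the median score, r was 0.84, 0.86 and 0.83. On the 2 sides of the small RNA split r was at least 0.74 for each.

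*PPBP*, *TGFB1* and *VWF* followed it less closely. For *PPBP* r was 0.68 and rho 0.65 (permutation P = 2e-05 and 1e-04, adjusted P for r 4e-05), and r was 0.55 without the 2 farthest dogs. For *TGFB1* r was 0.54 and rho 0.45 (permutation P = 0.00127 and 0.0116, adjusted P for r 0.00203), and r was 0.42 without those dogs. For *VWF* r was 0.53 and rho 0.48 (permutation P = 0.0023 and 0.00657, adjusted P for r 0.00307), and r was 0.52 without them. On the high side of the split *VWF* and *TGFB1* no longer passed, with r of 0.37 and 0.58 (adjusted permutation P = 0.332 and 0.124). *TGFB1* also did not pass within the cases or the controls, with r of 0.47 in both (adjusted permutation P = 0.118 and 0.0662).

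*CLU* had an r of 0.39 with the platelet score and a rho of 0.42 (permutation P = 0.0285 and 0.0184, adjusted P for r 0.0326). Its r was 0.78 in the cases and 0.17 in the controls, a difference that was not tested, and it did not pass in the controls (adjusted permutation P = 0.504) or on the low side (r = 0.23) or the high side (r = 0.53) of the split (adjusted permutation P = 0.363 and 0.153). It was 0.52 without the 2 farthest dogs and 0.36 without control_03 (adjusted permutation P = 0.0585). For *SPARC* r was -0.09 and rho -0.05 (permutation P = 0.644 and 0.788), and r was -0.05 without the 2 farthest dogs and 0.07 without control_03. Within the controls, control_03 included, r was -0.42 (rho -0.36, permutation P = 0.0777 and 0.137, adjusted P for r 0.0888), and within the cases it was 0.00409. As a description, 21.4% of all genes tested had an r with this score at least as far from 0 as that of *CLU*, the weakest of the 7 members that passed. An r at least as high as the lowest of *MMRN1*, *EGF* and *THBS1* was found in 0.417% of all genes tested.

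**Figure D2:**
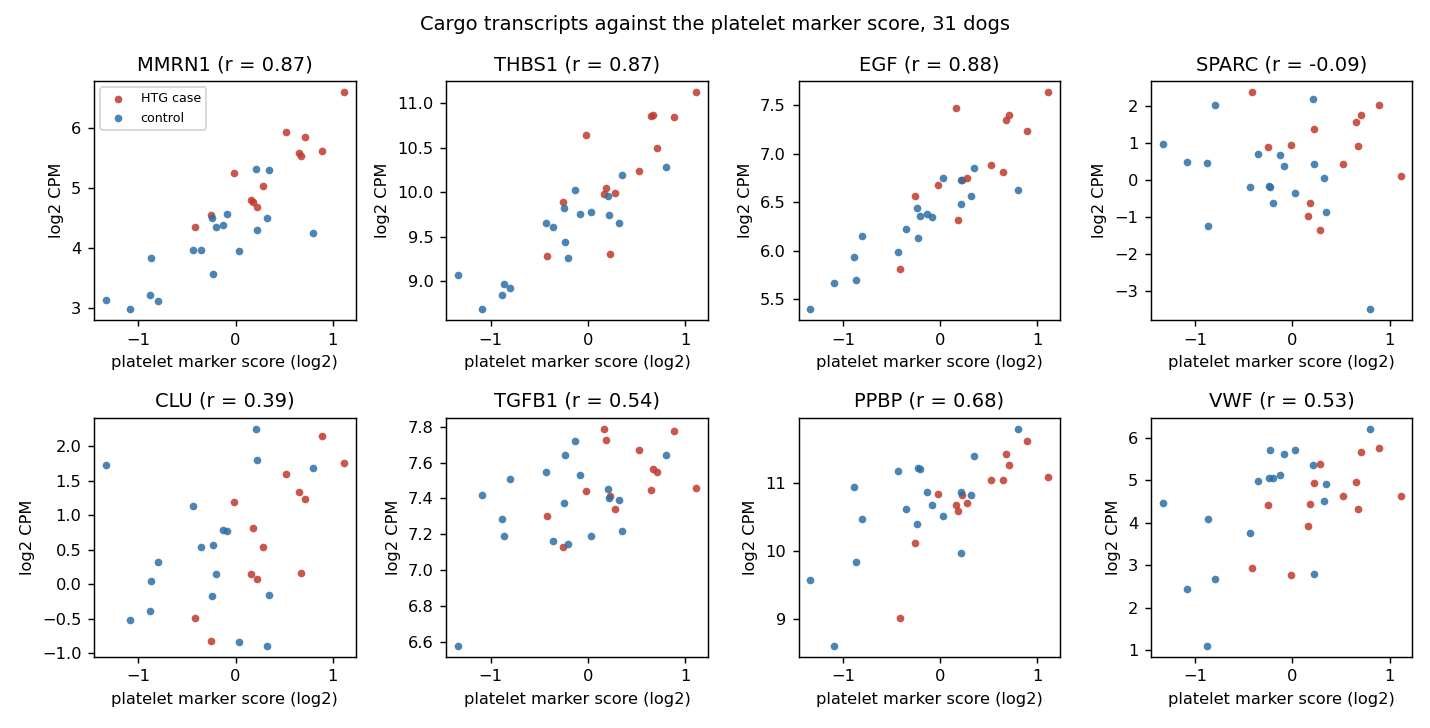
Each panel plots 1 member (y axis, log2 CPM) against the platelet marker score (x axis, mean centred log2 CPM of 10 platelet genes) in 31 dogs, with HTG cases in red and controls in blue. The points for *MMRN1*, *THBS1* and *EGF* lie along a line (r of 0.87 to 0.88), and those for *SPARC* do not (r = -0.09).

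When edgeR's fit also held the platelet marker score, the log2 fold changes of *MMRN1*, *EGF* and *THBS1* were 0.47 (SE 0.16), 0.20 (SE 0.11) and 0.25 (SE 0.13). That of *PPBP* was -0.45 (SE 0.21) and that of *VWF* -0.84 (SE 0.36), while that of *SPARC* was 0.85 (SE 0.46). *TGFB1* was at 0.02 (SE 0.09) and *CLU* at -0.30 (SE 0.40). No member passed, with edgeR's adjusted P of at least 0.718, and 0 genes were called in this fit. At an unadjusted P under 0.05, *MMRN1* (P = 0.00707), *VWF* (P = 0.0276) and *PPBP* (P = 0.0354) were 3 of 8 members, beside 817 genes in either direction, or 5.87%. The members' median was then 0.11, beside -0.01 over all genes.

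**Figure D3:**
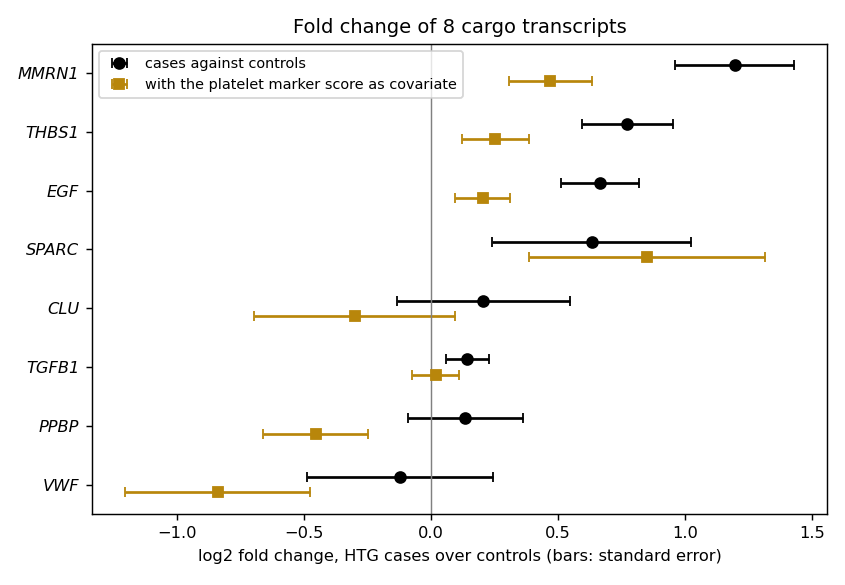
Log2 fold change of 8 members in HTG cases over controls (x axis, bars of 1 SE), in black circles for the groups alone and in ochre squares with the platelet marker score in the model. With the covariate *MMRN1* went from 1.20 to 0.47 and *VWF* from -0.12 to -0.84, while *SPARC* went from 0.63 to 0.85.

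Relative to *PPBP* in the same dog, a ratio that does not depend on the library size, all 13 cases had *MMRN1* above the control median. The log2 ratio of *MMRN1* to *PPBP* ranged from -6.13 to -4.47 in the cases and from -7.72 to -4.64 in the controls, and the means differed by 1.03. For *THBS1* the means differed by 0.56 and for *EGF* by 0.46, with 12 of 13 cases above the control median in each. For *VWF* the difference was -0.08, with 3 of 13 cases above the control median, and for *TGFB1* -0.03, with 6 of 13. For *SPARC* it was 0.48, with SDs of 1.38 and 1.73, and 0.20 without control_03, whose ratio is set by the prior count. For *CLU* it was 0.08, and 8 of 13 cases lay above the control median for *SPARC* and for *CLU*. No test was run on these ratios.

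Among the 28 pairs of members, 3 had an r above 0.8, namely *MMRN1* with *THBS1* (r = 0.88, rho = 0.85), *MMRN1* with *EGF* (r = 0.83, rho = 0.81) and *EGF* with *THBS1* (r = 0.82, rho = 0.81). Each had a permutation P of 1e-05 for r and rho, 9.33e-05 after adjustment over 28 pairs. Without the 2 dogs farthest from the median of the first gene of each pair, r was 0.84, 0.77 and 0.78. Within the cases r was 0.83, 0.71 and 0.67, and within the controls 0.82, 0.74 and 0.79. *PPBP* had an r of 0.62 with *EGF* and 0.60 with *THBS1* (rho 0.54 and 0.56, permutation P for r of 0.00014 and 0.00029, adjusted 0.00098 and 0.00162), and 0.59 and 0.52 without the 2 farthest dogs. *SPARC* was between -0.28 and 0.13 with every other member, and none of its pairs passed, with adjusted permutation P of at least 0.192. These values moved with the dogs used. Without the 2 farthest dogs they were between -0.29 and 0.42, the highest being with *CLU*, within the controls, control_03 included, they reached -0.48 with *PPBP*, and on the high side of the small RNA split they lay between -0.20 and 0.39.

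The genes with a symbol whose levels were most like those of each member, by Pearson's r over the 31 dogs as a description, differed by member. They were *ITGB3*, a subunit of the platelet fibrinogen receptor, for *MMRN1* (r = 0.93), *PECAM1*, an adhesion molecule of platelets, leukocytes and endothelium, for *EGF* (r = 0.93), and *GNAZ*, a G protein subunit, for *THBS1* (r = 0.92). For *PPBP* it was *GNG11*, another G protein subunit (r = 0.80), for *TGFB1* the transcription factor *SNAI1* (r = 0.82), and for *VWF* the tyrosine phosphatase *PTPN12* (r = 0.65). For *SPARC* it was *TARBP2*, which binds double-stranded RNA (r = 0.70), and for *CLU* it was *TMEM219* (r = 0.70). Above an r of 0.8 lay 61 genes for *MMRN1*, 75 for *EGF*, 58 for *THBS1*, 1 for *TGFB1* and 0 for each of the others. *ITGB3* and *GNAZ* are on the list the study called in these dogs. All of these points share libraries and depth.

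Markers of other cells were compared in the same way. The score over the list of endothelial markers was higher in the cases by 0.30 (permutation P = 0.00924, adjusted over 7 scores 0.0323), from -0.35 to 0.56 in the cases and from -0.73 to 0.59 in the controls. In it *EGFL7*, *ESAM* and *PECAM1* had log2 fold changes of 0.72, 0.38 and 0.41, none of them called by edgeR, and *TIE1* and *TEK* of 0.26 and -0.19. Of its defining markers, *CDH5* had at most 38 counts in a dog and was below the filter, and *CLDN5* had no row. *PECAM1* and *ESAM* are also found in platelets, and *PECAM1* was the gene nearest to *EGF*, so that this score does not separate endothelial from platelet RNA. The score had an r of 0.54 with *MMRN1* (rho 0.52), 0.61 with *EGF* (rho 0.61) and 0.49 with *THBS1* (rho 0.43), with permutation P-values for r of 0.0135, 0.0019 and 0.0311 after adjustment over 56 relations. Without control_09 and control_13, the dogs farthest from the median score, r was 0.54, 0.56 and 0.49. Within the groups it was 0.43, 0.38 and 0.40 in the cases and 0.29, 0.57 and 0.22 in the controls, and apart from *EGF* in the controls (permutation P = 0.0129, unadjusted) none of these reached an unadjusted P under 0.05. On the high side of the small RNA split r was 0.41, 0.62 and 0.37, and on the low side 0.63, 0.66 and 0.57. With *VWF* its r was 0.10. The part of endothelial RNA in the members' differences was not tested.

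The difference of cases from controls was 0.38 for the neutrophil score (permutation P = 0.0385, adjusted 0.0899) and 0.71 for the erythroid score (permutation P = 0.0971, adjusted 0.148). It was 0.24 for the B cell score, 0.15 for the monocyte score and -0.16 for the T cell score. None of these 5 passed the adjustment over 7. Of their defining markers, *CSF3R*, *ALAS2*, *LYZ* and *CD3E* were read in these libraries and passed the filter. *SPARC* had an r of -0.49 with the erythroid score (rho -0.45, adjusted permutation P for r 0.0311 and for rho 0.0613), and no other member passed with these 5 scores. The dog control_03 had the highest erythroid score and *SPARC* at 0. Without it r was -0.32 (rho -0.39, permutation P = 0.0855 and 0.0318, unadjusted), and without control_03 and case_01, the dogs farthest from the median score, r was -0.36 (permutation P = 0.0547). Within the cases r was -0.32, within the controls, control_03 included, -0.80, and on the high side of the small RNA split, which holds control_03, -0.46. On the low side, which does not hold it, r was -0.47 (rho -0.48, permutation P = 0.0298 and 0.0286, unadjusted).

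**Figure D4:**
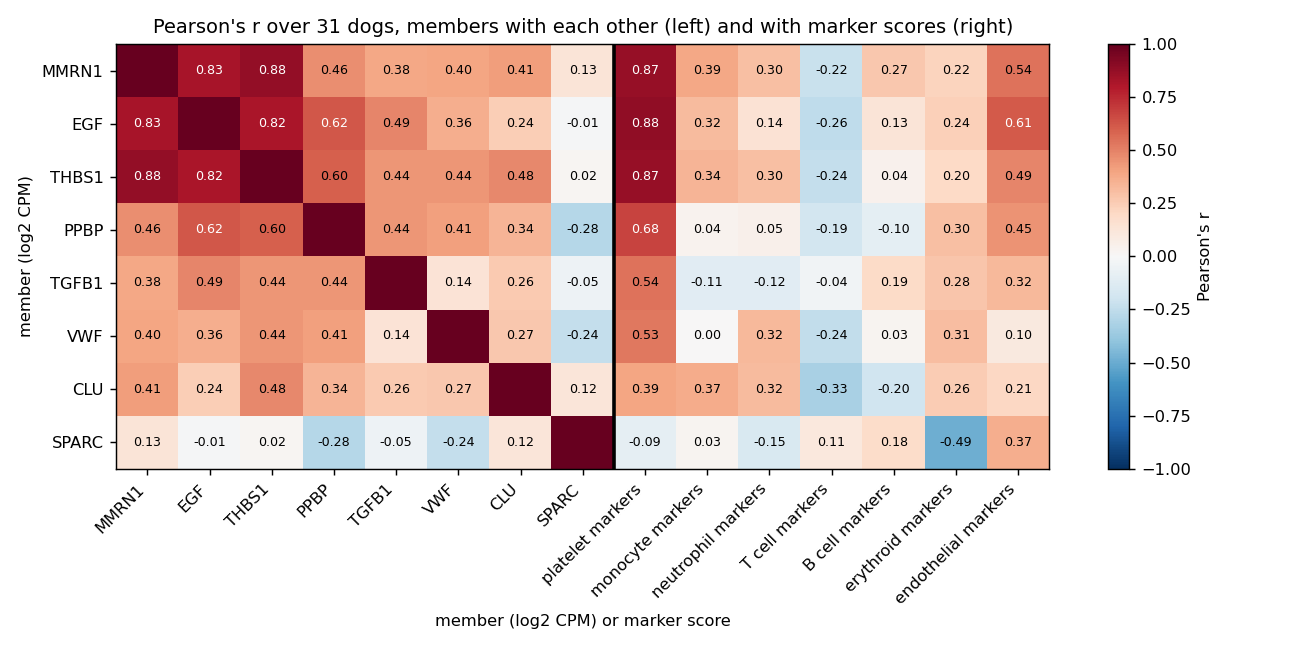
Pearson's r over 31 dogs between 8 members (rows, log2 CPM) and the same members (left of the line) or 7 marker scores (right), coloured from -1 in blue to 1 in red, with each value printed. *MMRN1*, *EGF* and *THBS1* form a block of r from 0.82 to 0.88 and have r of at least 0.87 with the platelet score, and *SPARC* has an r of -0.49 with the erythroid score.

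Other alpha granule cargo that megakaryocytes make was described through 24 genes, of which 20 were tested. No gene was called by edgeR, 17 of 20 had a log2 fold change above 0, and 9 of 20 were higher at an unadjusted P under 0.05, beside 5.04% of all genes. Their median log2 fold change was 0.35. *F13A1* and *LTBP1* are among the 9 and are also on the list the study called in these dogs, so that they are not independent evidence. The highest values were those of *TIMP3* at 0.77 and *TIMP1* at 0.67, inhibitors of matrix metalloproteinases (edgeR's adjusted P = 0.313 and 0.226). Lowest was *CCL5*, a chemokine that T cells also make, at -0.41 (edgeR's adjusted P = 0.832). *BDNF* had 0 counts in every dog.

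Of 10 plasma proteins that alpha granules take up, 3 were tested. The fibrinogen chains *FGA*, *FGB* and *FGG* had at most 1 count in any dog, and *HRG* and *PLG* had 0. Among those tested, the protease inhibitors *SERPINA1* and *A2M* had log2 fold changes of 0.17 and 0.14 and *SERPINC1*, which encodes antithrombin, of -0.43, none called by edgeR (adjusted P = 0.693, 0.893 and 0.610).

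Of the machinery that forms alpha granules, 8 of 9 genes were tested, none was called by edgeR, and the median log2 fold change was -0.00. *NBEAL2*, whose loss leaves platelets without alpha granules in gray platelet syndrome, was at 0.13 (adjusted P = 0.701) and *NSF*, which acts in membrane fusion, at 0.05 (adjusted P = 0.820). The lowest was *SCFD1*, a trafficking protein, at -0.15 (adjusted P = 0.463). For the release machinery, 11 of 13 genes were tested, none was called by edgeR, and the median was 0.09. *SYTL4* and *RAB27A*, which act in granule docking, were at 0.49 and 0.25 (adjusted P = 0.382 and 0.311), and the SNARE protein *SNAP23* at -0.08 (adjusted P = 0.835).

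Of 19 receptors of the cargo proteins, 13 were tested and none was called by edgeR. The receptor of von Willebrand factor gave the highest values, with log2 fold changes of 0.99 for *GP1BB* and 0.80 for *GP1BA* (adjusted P = 0.113 and 0.283), and the lowest was the EGF receptor family member *ERBB3* at -0.44 (adjusted P = 0.405). The median over the list was -0.02, and 4 of 13 were higher at an unadjusted P under 0.05, beside 5.04% of all genes. All 4 encode platelet surface proteins. At the same threshold 1 of 13, *ERBB3* (P = 0.0229), was lower, beside 4.76% of all genes. Of these 4, *GP1BA*, *GP9* and *CLEC1B* are also in the platelet marker score, and *GP1BB* is on the list the study called in these dogs. *CD36*, a receptor of thrombospondin 1, had at most 8 counts in a dog. The gene annotation is not given, so that a low count of this row is not evidence that the transcript is absent.

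**Figure D5:**
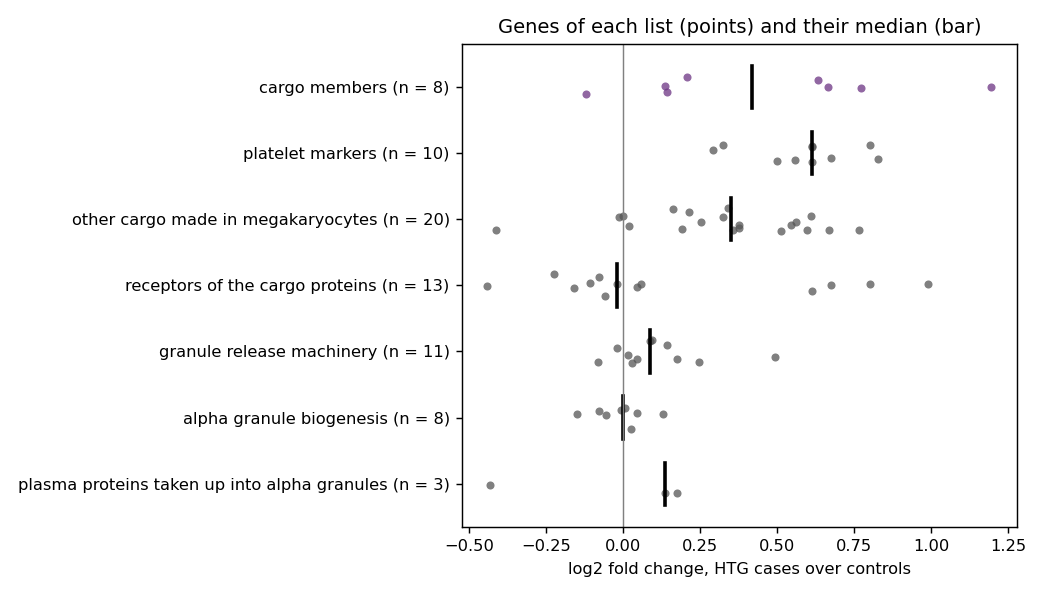
Log2 fold change in HTG cases over controls (x axis) of the tested genes of 7 lists (rows), each point a gene and each bar the median of its list. The median is 0.42 for the members, 0.61 for the platelet markers and 0.35 for the other cargo, and lies between -0.02 and 0.14 for the lists of receptors, release, biogenesis and plasma proteins.

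Sex was given for every dog. With group in the model, no member was called between females and males by edgeR, beside 0.122% of all genes. *THBS1* and *CLU* had unadjusted P-values under 0.05, with log2 differences of -0.37 and -0.67 for females against males (edgeR's adjusted P = 0.959 for both). These were 2 of 8 members, beside 4.89% of all genes in either direction. At that threshold DESeq2 and no filter on low counts each gave 2 of 9 members, beside 936 and 2013 of 25584 genes. RLE scaling gave 1 of 8 members, beside 651 of 13918 genes. Limma-voom and the small RNA split as a covariate gave 0 of 8, beside 803 and 961 of 13918 genes. *THBS1* had a mean of 984 CPM in female cases and 1551 CPM in male cases, and of 725 and 824 CPM in female and male controls. For the difference between cases and controls by sex (the interaction term), 0 members and 0 genes were called by edgeR, 0 members and 547 genes had an unadjusted P under 0.05, and DESeq2 and limma-voom also called 0 genes. *MMRN1* had means of 33.8 CPM in female cases, 48.1 in male cases, 19.2 in female controls and 18.1 in male controls, with an interaction of -0.59 (SE 0.48, edgeR's adjusted P = 1.00).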

How the data were processed

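Whole blood RNA of 31 dogs was prepared with a total RNA kit with ribosomal RNA removal. The authors trimmed reads with Trimmomatic, aligned them to Dog10K_Boxer_Tasha with HISAT2 and counted pairs with both mates mapped, and the deposited values are raw counts. Their totals were lower than the assigned reads the study lists for each dog, with the smallest share in control_03, so that the table is not described as the whole of those counts. The counting program, its strand setting and the gene annotation are not given in the sources used here, so that reads of overlapping or antisense genes cannot be told apart, and no coordinates or sequences are given.

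Groups came from the labels. In R 4.3.3, edgeR 4.0.16 (TMM, filterByExpr by group, glmQLFit and glmQLFTest) compared the groups without covariates, with Benjamini-Hochberg adjustment over 13918 genes. The study used DESeq2 with batch as a covariate, and the labels do not name the batch. SE is the log2 fold change divided by the root of F. A prior count of 2 was used for log2 CPM. Alternatives used DESeq2 1.42.0 and limma-voom 3.58.1. Scores and correlations were tested with 100000 permutations in Python 3.11.15 with scipy 1.17.1. Score differences in which the smaller group held under 10 dogs were instead tested exactly. The tests were checked on simulated counts. No pair of libraries agreed within sampling noise (lowest chi-square per degree of freedom 24.9 over 465 pairs). Low counts limit *SPARC*, *CLU* and *PDGFA* most, and whether depth or the annotated row sets these counts was not tested.

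Members and lists were chosen with earlier results of these data known. Named genes were all members, from each list the 2 tested genes with the largest and the 1 with the smallest log2 fold change, the gene nearest to each member by r, and list genes at 0 in every dog. Other genes named as markers or receptors were chosen after their values were seen. Each side of the small RNA split alone, DESeq2 with that split, dogs 1 to 13 without a block, assigned reads as library sizes, scores and ranges without control_03, other dogs left out of marker score relations, ratios to *PPBP* and pairs of members were also chosen after seeing the data. Some marker genes are not reported here by name.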

Additional observations from a re-analysis of the deposited data

Results flagged for a closer look

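Within groups of 4 to 10 dogs of the same sex and diagnosis, a dog was singled out where its gap to the nearest other dog, divided by the range of the group in log2 CPM, exceeded Dixon's 95% critical value. Chance gives about 5% of groups, and 4 of 32 were singled out. Among the 5 female cases, case_12 was lowest for *THBS1* (624 CPM, ratio 0.728) and for *PPBP* (515 CPM, ratio 0.777), and it also had the lowest platelet marker score of the cases, -0.42. Among the 10 male controls, control_09 was lowest for *TGFB1* (95.4 CPM, ratio 0.512) and control_03 for *SPARC* (0 CPM, ratio 0.552). The latter ratio depends on the prior count given to a count of 0, and with that count at its floor of 3 counts it was 0.280, below the critical value of 0.466, so that 3 of the 4 remain.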

How the results depend on the processing

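The number of genes called by edgeR, 5, and of members called, 1, depended on test and dogs. They were 85 and 3 with DESeq2, 110 and 3 with DESeq2 and the small RNA split as a covariate, and 0 and 0 with limma-voom, with the platelet marker score and on either side of the split alone. With at least 10 counts in every dog, and with the assigned reads as library sizes, they were 1 and 0, and with sex as a covariate 0 members were called. Leaving out 1 dog gave 1 to 154 genes and 0 to 3 members, with 154 genes without control_03, 23 without case_12, 8 to 12 without case_07, case_08, control_13 or control_18, 2 or 3 without case_03, case_05, case_09, control_06, control_07, control_10, control_12, control_14, control_16 or control_17, and 1 without case_01. Over these alternatives the log2 fold change of *MMRN1* lay between 0.47 (platelet score) and 1.30, with adjusted P from 0.000851 (DESeq2) to 1.00 (edgeR, high side of the split), and the adjusted P of *EGF* and *THBS1* ran from 0.0111 to 1.00. RLE or upper quartile scaling, no filter, the small RNA split and leaving out the 20 genes with the highest totals kept *MMRN1* called. The cause of these changes was not tested.

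In a fit with the dog number as a replicate block (dogs 1 to 13), 0 genes and 0 members were called, as also without the block in these dogs (0 and 0). The study numbers dogs of each group from the highest to the lowest triglycerides. Dogs 1 to 13 therefore leave out the controls with the lowest values, and the block matches dogs by rank. Same-numbered dogs did not deviate together (r from -0.44 to 0.26 over 13 pairs, 3 above 0.1, and 1 case was most like the control of its own number), so that the numbers do not pair dogs.

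Signs turned for members that did not pass. *PPBP* was at -0.45 with the platelet score, -0.067 on the high side of the split and -0.0065 with the assigned reads as library sizes, where *TGFB1* was at -0.062. *VWF* was at 0.11 with limma-voom, 0.051 with the replicate block, 0.24 on the high side and between -0.24 and 0.0098 leaving out 1 dog. *CLU* was at -0.30 with the platelet score and -0.10 on the low side. The r of *SPARC* with the platelet score was 0.00409 in cases, 0.00223 on the high side, 0.106 on the low side and 0.071 without control_03. Of 8 members, 7 correlated with the platelet score, against 6 without control_03, in cases alone and on the low side, 5 in controls alone and 4 on the high side, where the difference of the score between groups was 0.37 and did not pass. In all dogs, 21.4% of all genes had an r at least as far from 0 as the weakest of those 7. The share over all genes was not computed in the other settings. In the comparisons by sex 0 members were called in any alternative.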
